A study of Mus musculus with 8 samples.

Results

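The HIF1 targets outside glycolysis described here are 10 genes: Vegfa, Adm, Angptl4, Car9, P4ha1, P4ha2, Bnip3, Bnip3l, Ddit4 and Ndrg1. They were chosen by name, as genes known to be induced by HIF1, and all 10 were found among the 35087 rows with a gene name. RNA of mouse granulosa cells, which line the ovarian follicle and nurse its oocyte, was sequenced after laser microdissection from frozen sections. Groups were taken from the sample titles. In the cKO group (2 libraries) both Hif1a alleles were flanked by loxP sites (Hif1aflox/flox) and Foxl2-CreERT2, a Cre recombinase under the granulosa gene Foxl2 that tamoxifen activates, was present. In the WT group (6 libraries) the same floxed alleles were present without the Cre, so these libraries are floxed controls and not unmodified animals. Females of both groups were 3 weeks old when tamoxifen was given at 100 mg/kg on each of 5 days, and their ovaries were collected after a further 7 days. The genotype label calls the cKO libraries a knockdown. Per their descriptions all 8 libraries have names starting with cKO, which leaves a doubt about the WT labels in every comparison. No label ties a library to an animal, so libraries may share an animal, p-values may then be too small, and they measure only the spread between these libraries.

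HIF1 is a transcription factor of an oxygen-regulated subunit, encoded by Hif1a, and a constant partner, encoded by Arnt. At normal oxygen the first is hydroxylated, bound by the VHL protein and degraded. When oxygen is low it accumulates and binds hypoxia response elements, short DNA motifs with the core ACGTG or GCGTG. Beyond glycolysis its known targets serve vessel growth (Vegfa, Adm), lipid handling (Angptl4), pH balance (Car9), collagen folding (P4ha1, P4ha2), removal of mitochondria (Bnip3, Bnip3l), restraint of the growth kinase mTORC1 (Ddit4) and stress responses (Ndrg1). The granulosa layer lies inside a basal lamina and holds no vessels of its own, and VEGFA is known as a granulosa product that promotes vessel growth in the theca around it.

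The promoters of 4 of the genes are shown because they represent the patterns found in the counts: P4ha1 was lower in both cKO libraries than in every WT library, Vegfa was higher in both, and Bnip3 and Ddit4 varied mainly among the WT libraries. Capitals mark the cores ACGTG and GCGTG on either strand (CACGT and CACGC when read from the other strand). The sequences are from RefSeq on GRCm38.p6, on the strand of the gene, and stop at the gene's annotated start or at the first annotated exon base.
P4ha1 (chr10:59323046-59323295, plus strand): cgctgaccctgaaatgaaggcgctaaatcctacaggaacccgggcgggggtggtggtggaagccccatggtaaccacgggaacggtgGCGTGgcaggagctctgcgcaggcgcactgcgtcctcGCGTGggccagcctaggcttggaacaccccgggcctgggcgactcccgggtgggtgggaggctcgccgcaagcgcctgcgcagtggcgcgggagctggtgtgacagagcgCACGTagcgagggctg
Bnip3 (chr7:138909520-138909756, minus strand): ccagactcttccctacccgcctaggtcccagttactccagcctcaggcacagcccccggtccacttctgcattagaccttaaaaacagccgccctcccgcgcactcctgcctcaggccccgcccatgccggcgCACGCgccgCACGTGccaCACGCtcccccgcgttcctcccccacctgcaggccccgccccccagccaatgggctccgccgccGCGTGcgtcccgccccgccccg
Ddit4 (chr10:59951835-59952020, minus strand): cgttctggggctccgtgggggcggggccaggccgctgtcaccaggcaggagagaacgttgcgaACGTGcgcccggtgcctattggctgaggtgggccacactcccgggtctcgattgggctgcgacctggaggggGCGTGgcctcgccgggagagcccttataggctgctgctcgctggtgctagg
Vegfa (chr17:46032378-46032627, minus strand): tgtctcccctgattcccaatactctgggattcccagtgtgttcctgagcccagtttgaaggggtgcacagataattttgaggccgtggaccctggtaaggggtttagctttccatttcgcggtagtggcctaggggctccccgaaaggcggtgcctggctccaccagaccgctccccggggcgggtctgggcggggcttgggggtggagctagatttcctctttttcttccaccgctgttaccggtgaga
The P4ha1 stretch held 3 motif matches, the Bnip3 stretch 5, the Ddit4 stretch 2 and the Vegfa stretch 0. A pair of the Bnip3 matches overlap in the palindrome CACGTG, 1 on each strand. Of the 10 genes, 7 had an entry in the promoter table, with 8 windows in all since Vegfa has 2 annotated starts, and every window except the Vegfa stretch printed above held at least 1 match in the 250 bases before the start. Among all 32851 promoter windows of that length, 38.6% held at least 1 match and 16.7% held at least 2. The other Vegfa window held 2 matches, and 218 of its 250 bases lie in annotated exons. In the Car9 window 60 bases lie in annotated exons, and its only match, 18 bases before the window's end, is among them. A match describes the letters only and is not evidence of binding. Bases further than 250 before a start were not searched, so a window without a match does not show that the gene lacks such an element.

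Depth was uneven. Reads on named genes numbered 2054584 and 651426 in cKO and from 1594803 to 4719293 in WT. CPM denotes normalised reads scaled to a common library size. A count of 0 allows up to 3 reads, or 1.46 CPM in cKO replicate 1, 4.61 CPM in cKO replicate 2 and from 0.636 to 1.88 CPM in WT, for counting error only. These limits use library sizes before TMM scaling, which the CPM of genes include, so the 2 scales differ somewhat. Hif1a itself had 22.3 and 13.7 CPM in cKO, and its lowest, median and highest WT values were 35.5, 59.7 and 106.2 CPM. By edgeR's quasi-likelihood test the log2 fold change was -1.84 ± 0.58 (SE, adjusted p = 0.369). Reads outside the excised part count toward Hif1a too. All 12 granulosa markers were detected in cKO. Their summed level in cKO was 5119.3 and 1774.4 CPM. In WT it was 3663.5 CPM for replicate 1, 8402.6 CPM for replicate 2 and from 20958.2 to 63025.4 CPM for the other 4. Inha was the largest part of the sum in every library. Fshr, Inha, Inhba, Fst, Cyp19a1, Hsd17b1, Nr5a2 and Gja1 were each lower in WT replicates 1 and 2 than in the other 4. Foxl2, Amh, Amhr2 and Kitl had no such order. Among WT libraries Amh was highest in replicates 1 and 2, at 766.5 and 1126.5 CPM, with at most 175.7 CPM in the other 4. Values for the libraries numbered 1 and 2 alone are given below, a subset that earlier work on these data picked because granulosa genes set it apart. The mitochondrial genome took 8.87% and 10.5% of reads in cKO and from 1.42% to 3.65% in WT, and with its genes removed from the fit the median of the HIF1 targets was the same, -1.41. Summed markers of other cells in cKO against WT were from 185.8 to 346.1 against from 95.1 to 519.2 CPM for theca (7 genes), from 424.8 to 1801.5 against from 16.8 to 1294.1 CPM for stroma (8 genes), from 285.5 to 350.1 against from 88.6 to 451.1 CPM for endothelium (8 genes), from 75.1 to 437.9 against from 47.8 to 377.9 CPM for blood (8 genes) and from 17.8 to 44.7 against from 2.94 to 1526.5 CPM for the oocyte (8 genes, of which Dppa3 was at 0 in both cKO libraries). In bulk samples, fewer cells of a type and less RNA per cell cannot be told apart.

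As a set the 10 genes showed 3 patterns in the cKO libraries. Angptl4 and P4ha1 lay below every WT library, Vegfa lay above every WT library, and Bnip3, Bnip3l and Ddit4 were low in cKO but overlapped WT replicate 1 or 2. P4ha2, Ndrg1 and Adm overlapped between the groups without such an order, and Car9, with 0 reads in cKO, could not be compared at this depth. Of the 9 tested genes 7 had a log2 fold change below 0, beside 52.7% of all tested genes. The 7 include Car9, whose sign was fixed by its 0 reads in cKO. None of the 9 genes that passed the filter on low counts reached an adjusted p under 0.05 in edgeR, and across all 15102 tested genes edgeR called 0 (a background of 0%). At an unadjusted p under 0.05 in edgeR there were 3 of the 9 (Angptl4, Bnip3 and Bnip3l, all lower), beside 8.89% of all tested genes lower and 3.4% higher, or 1855 genes (12.3%). Which members these were depended on the method. By limma-voom they were Vegfa and Ndrg1, both higher, and Bnip3l, lower. By limma on log2(TPM + 1) they were Car9 and Bnip3l, both lower, and Ndrg1, higher. Shares over all genes are not given for the limma fits. DESeq2 called 274 genes over the transcriptome (3.53% of the 6881 genes with an adjusted p lower, 0.451% higher) and 0 of the 6 members that received an adjusted p there. The groups did not overlap for 3 members lower and 1 higher, beside 6.41% of all tested genes lower and 6.02% higher. Among the 3 is Car9, whose limit in cKO replicate 2 reaches into the WT levels, which leaves Angptl4 and P4ha1. Without WT replicate 1 the count was 5 lower, Car9 included, with Bnip3 and Bnip3l added, and without cKO replicate 2 or WT replicate 3 it was 2 higher, with Ndrg1 added. At an unadjusted p under 0.05 the 3 became 0 without cKO replicate 2 and 1 without WT replicate 4. The median log2 fold change was -1.41 over the 9 genes, or -1.13 over the 8 without Car9, whose fitted value is not a measured size, against -0.08 over all tested genes. Scaling by DESeq2's size factors moved the last value to 0.05 and the 9 genes' median to -1.31. The median of the targets was -0.47 in the libraries numbered 1 and 2 alone, -0.36 with the replicate number as a block and -0.79 with detected genes as a covariate, and in each of these settings 0 of them had an unadjusted p under 0.05. Car9 and Ddit4 failed the filter in the libraries numbered 1 and 2 alone, so the median of -0.47 leaves them out.

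**Figure D1:**
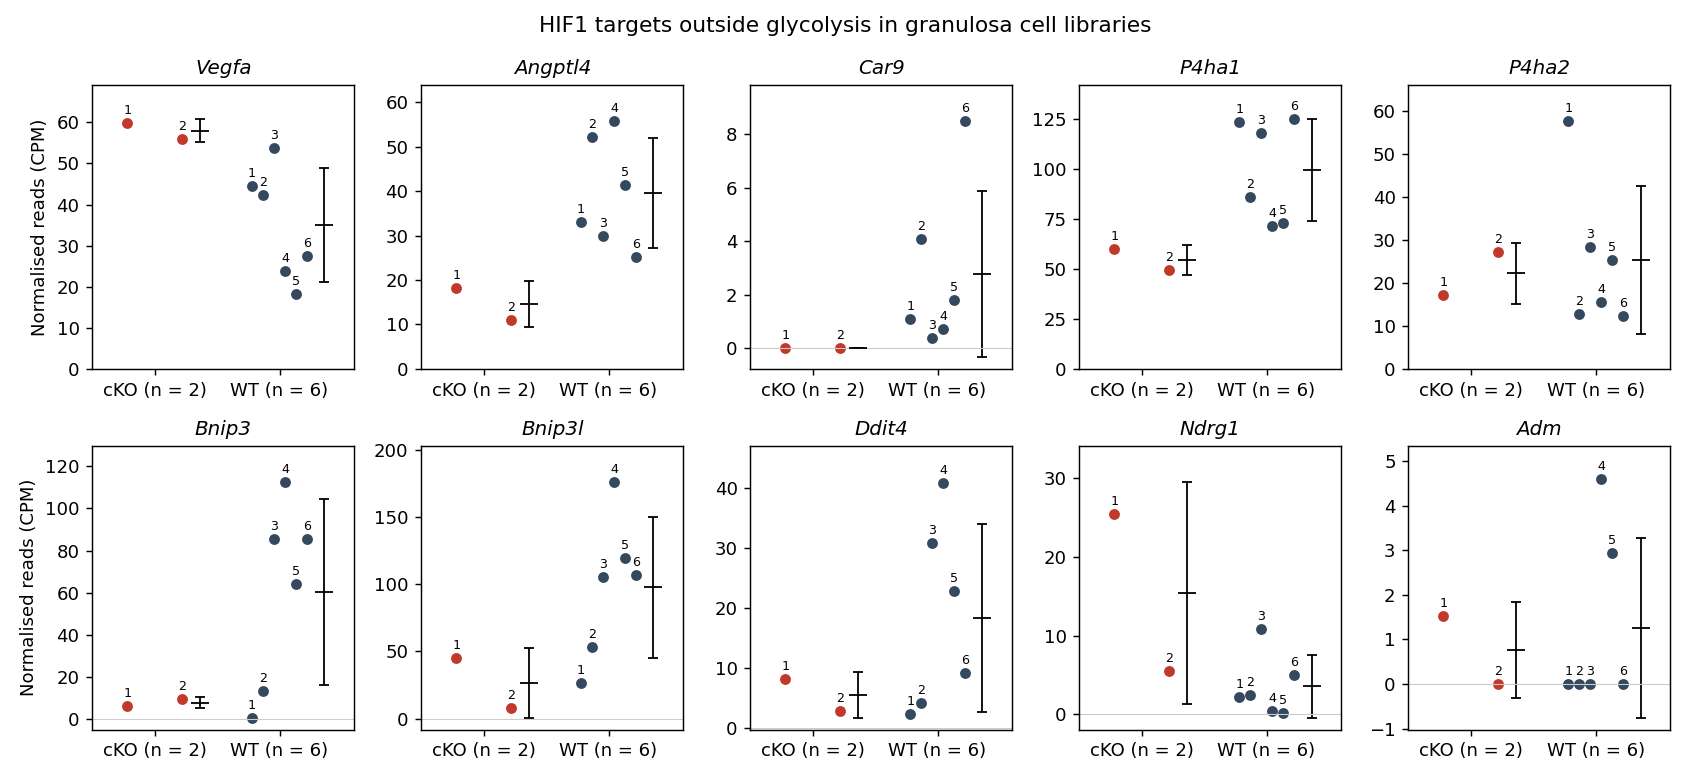
Normalised reads (CPM, linear axis) of the 10 genes in each library, with cKO in red and WT in dark blue, the replicate number above each point, and the mean and SD in black. Vegfa lies at 59.9 and 56.0 CPM in cKO and no higher than 53.8 CPM in WT, while Bnip3 is above 60 CPM only in WT replicates 3 to 6.

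The vessel-directed genes were considered first. Vegfa (chromosome 17, 46016993 to 46032369, minus strand) encodes the secreted growth factor that acts on endothelial cells. It had 59.9 and 56.0 CPM in cKO, and its lowest, median and highest WT values were 18.3, 34.9 and 53.8 CPM. Both cKO libraries were above all 6 WT libraries, by a narrow margin over WT replicate 3. The means were 57.9 ± 2.74 CPM in cKO against 35.1 ± 13.8 CPM in WT (SD, n = 2 and 6). The edgeR log2 fold change was 0.73 with an SE of 0.47 (adjusted p = 0.528). Without TMM scaling the groups overlapped, with detected genes as a covariate the sign turned (-0.51), and on the deposited TPM scale, which divides by transcript length, cKO had 15.6 and 36.4 TPM against from 6.19 to 33.1 TPM in WT. The detected genes numbered at most 12847 in cKO and at least 13597 in WT, so this count and the genotype cannot be told apart. Adm (chromosome 7, 110627661 to 110629820, plus strand) encodes adrenomedullin, a peptide that widens vessels. It had 3 and 0 reads in cKO and reads in only 2 WT libraries, 19 in replicate 4 and 13 in replicate 5, and did not pass the filter. At this depth Adm was too low for a comparison.

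Receptors and relatives of these ligands did not pass the test either. Of 9 genes of the VEGF family and its receptors 8 were tested, 3 lower and 5 higher in cKO, with a median log2 fold change of 0.77, 0 at an unadjusted p under 0.05 in edgeR and 0 called by DESeq2 among the 2 with an adjusted p there. Pgf (placental growth factor) had 1.37 ± 1.93 CPM in cKO against 7.21 ± 4.81 CPM in WT (SD; log2 fold change -2.71 ± 1.51, SE, edgeR adjusted p = 0.474). Vegfd had 29.6 ± 10.3 CPM in cKO against 11.4 ± 11.1 CPM in WT (SD; 1.39 ± 0.85, SE, edgeR adjusted p = 0.514). The summed endothelial markers, which include the receptor genes Kdr and Flt1, had the ranges given above, and their part in the receptor values was not tested. For adrenomedullin, the 5 receptor and relative genes had a median of -0.08. Calcrl, the receptor gene, had 3.55 and 10.9 CPM in cKO and at most 1.81 CPM in WT (log2 fold change 3.20 ± 1.55, SE, edgeR adjusted p = 0.421), and Adm2 was at -2.78 ± 2.78 (edgeR adjusted p = 0.684).

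Angptl4 (chromosome 17, 33773750 to 33781830, minus strand) encodes a secreted inhibitor of lipoprotein lipase. It had 18.3 and 10.9 CPM in cKO, and its lowest, median and highest WT values were 25.3, 37.2 and 55.8 CPM. Every cKO value lay below every WT value. The means were 14.6 ± 5.19 CPM in cKO against 39.6 ± 12.4 CPM in WT (SD, n = 2 and 6). The edgeR log2 fold change was -1.41 with an SE of 0.53 (adjusted p = 0.372). The sign was negative in all 20 alternative settings, from -1.92 to -0.73. Since the groups did not overlap, settings that leave out libraries had little room to turn it. Among the libraries numbered 1 and 2 alone, whose granulosa marker sums overlap, the log2 fold change was -1.43. On the TPM scale the groups overlapped, with 7.97 and 15.7 TPM in cKO against from 14.2 to 24.9 TPM in WT. The 8 reads in cKO replicate 2 limit the precision of its value.

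Around Angptl4, the lipase that it inhibits was lower in the same libraries. Lpl, lipoprotein lipase, had 43.1 and 24.6 CPM in cKO and no less than 54.4 CPM in WT. The edgeR log2 fold change was -1.08 with an SE of 0.46 (adjusted p = 0.383). Angptl2, a relative of Angptl4, had 4.57 and 9.56 CPM in cKO and no less than 14.5 CPM in WT. The edgeR log2 fold change was -1.93 with an SE of 0.66 (adjusted p = 0.369). Of the 6 genes tested in this list, 3 were lower and 3 higher, and the median was -0.06, near the -0.08 of all genes. Only Lpl and Angptl2 had an unadjusted p under 0.05 in edgeR, both lower, beside 8.89% of all tested genes lower at that threshold.

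Car9 (chromosome 4, 43506966 to 43513729, plus strand) encodes a carbonic anhydrase of the cell surface that balances pH outside the cell. It had 0 reads in both cKO libraries, and 2, 15, 1, 3, 8 and 39 reads in WT replicates 1 to 6, with a lowest, median and highest level of 0.39, 1.46 and 8.51 CPM. The limit of 3 reads in cKO replicate 2, 4.61 CPM, lies above 5 of the 6 WT levels, so no fold is given and a difference was not detectable at this depth. The highest WT levels were in replicates 6 and 2, which also had the largest summed oocyte markers, 1526.5 and 395.5 CPM, and the part of oocyte RNA was not tested. Car9 passed the filter through these 2 libraries. Its exons share 214 of 2304 bases with the antisense gene Gm12454, and the amplification method does not mark strand. Of 11 other carbonic anhydrase genes 8 were tested, 1 lower and 7 higher, with a median of 0.86 and 0 at an unadjusted p under 0.05 in edgeR (DESeq2 gave an adjusted p to 1 of them, Car14, and did not call it). Car14, a membrane form, had 110.1 ± 61.0 CPM in cKO against 255.5 ± 147.3 CPM in WT (SD; log2 fold change -1.21 ± 0.71, SE, edgeR adjusted p = 0.494). Car3 rested on cKO replicate 2 at 13.7 CPM, with 0 in cKO replicate 1 and at most 3.30 CPM in WT.

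P4ha1 and P4ha2 encode alternative catalytic subunits of collagen prolyl 4-hydroxylase, which stabilises the collagen triple helix. P4ha1 (chromosome 10, 59323296 to 59373304, plus strand) had 59.9 and 49.2 CPM in cKO, and its lowest, median and highest WT values were 71.3, 101.7 and 125 CPM. All WT libraries were above both cKO libraries, with WT replicates 4 and 5 closest to them. The means were 54.5 ± 7.57 CPM in cKO against 99.2 ± 25.5 CPM in WT (SD, n = 2 and 6). The edgeR log2 fold change was -0.86 with an SE of 0.43 (adjusted p = 0.434). The sign was negative in all 20 alternative settings, from -1.39 to -0.64. Here too, settings that leave out libraries had little room to turn it. The value in the libraries numbered 1 and 2 alone was -0.87. The groups did not overlap on the TPM scale either, with 11.5 and 12.9 TPM in cKO and at least 16.9 TPM in WT.

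P4ha2 (chromosome 11, 54100095 to 54131665, plus strand) had 17.3 and 27.3 CPM in cKO, and its lowest, median and highest WT values were 12.4, 20.5 and 57.7 CPM. The cKO libraries lay inside the WT range, which WT replicate 1 sets at its upper end. The log2 fold change was -0.20 ± 0.66 (SE, edgeR adjusted p = 0.920), and it was 0.24 without WT replicate 1 and -0.62 without cKO replicate 2. The log2 ratio of P4ha1 to P4ha2 within a library was 1.74 and 0.83 in cKO and 2.09 ± 0.77 in WT (SD, n = 6). This difference of -0.81 was not beyond the spread between libraries (exact two-sided permutation test, p = 0.214, with 0.0357 the smallest that 28 splits can give).

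The other genes of collagen modification, all 12 tested, were 8 lower and 4 higher in cKO with a median of -0.90. In edgeR 4 had an unadjusted p under 0.05, all lower: Ppib, P3h4, Serpinh1 and P4hb, beside 8.89% of all tested genes lower at that threshold. P4hb, the partner subunit of P4HA1 and P4HA2, had 329.3 and 77.9 CPM in cKO and from 252.2 to 761.8 CPM in WT (log2 fold change -1.40 ± 0.63, SE, edgeR adjusted p = 0.394). Ppib, a cyclophilin that assists collagen folding, had 184.7 and 53.3 CPM in cKO, 170.3 CPM in WT replicate 1 and at least 587.4 CPM in the other WT libraries. Its log2 fold change was -2.42 ± 0.73 (SE), with an adjusted p = 0.369 in edgeR and 0.00707 in DESeq2, the 1 call of DESeq2 among the 9 of this list with an adjusted p, beside 3.53% of all such genes lower. P3h4 had 66.5 and 56.0 CPM in cKO and at least 84.6 CPM in WT (-1.13 ± 0.42, SE, edgeR adjusted p = 0.372). The list had a median of 0 in the libraries numbered 1 and 2 alone. Serpinh1 and P4hb were named because the count is small and not by the rule for named genes.

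**Figure D2:**
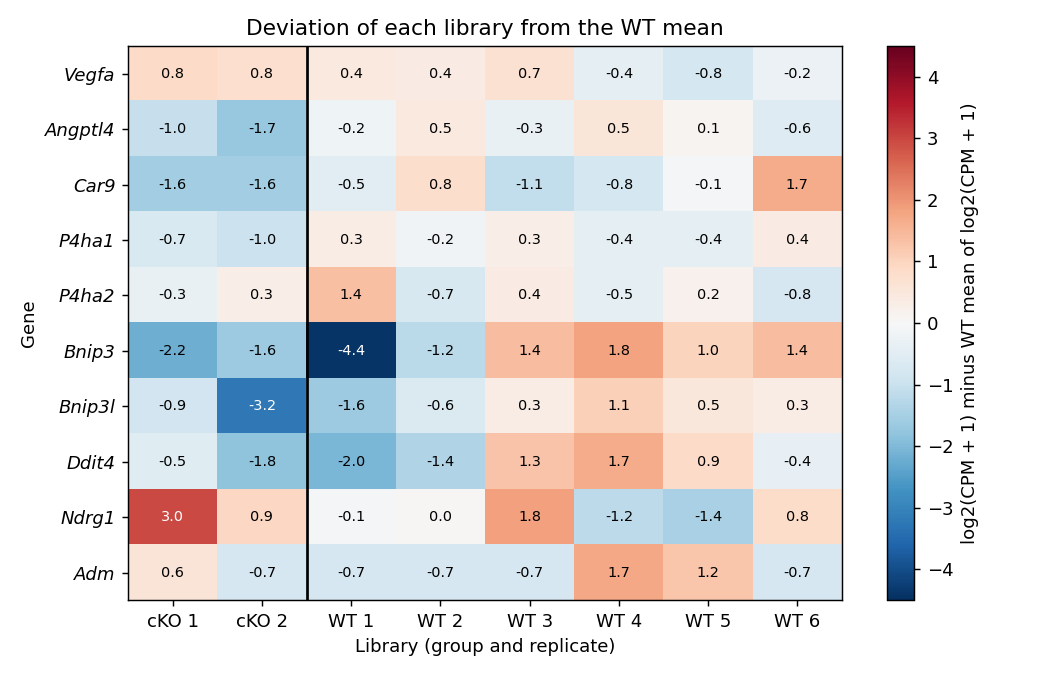
Each library's log2(CPM + 1) minus the mean of log2(CPM + 1) over the 6 WT libraries, for the 10 genes (rows) in the cKO libraries (left of the line) and WT libraries (right). Bnip3, Bnip3l and Ddit4 are negative in cKO and in WT replicates 1 and 2, where Bnip3 reaches -4.40. Ddit4 is also negative in WT replicate 6 (-0.38). Angptl4 and P4ha1 are lowest in cKO.

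Bnip3 and Bnip3l encode related proteins of the outer mitochondrial membrane that recruit the autophagy machinery. Bnip3 (chromosome 7, 138890836 to 138909519, minus strand) had 6.09 and 9.56 CPM in cKO. In WT it had 0.549 CPM in replicate 1, 13.1 CPM in replicate 2 and 85.4, 112.4, 64.3 and 85.3 CPM in the other 4. The cKO libraries thus lay between WT replicates 1 and 2, far below the other 4. The log2 fold change over all libraries was -2.99 ± 1.25 (SE, edgeR adjusted p = 0.380), and among the libraries numbered 1 and 2 alone it was 0.33. Exons of Bnip3 share 504 of 2265 bases with the antisense gene Gm45507. On the TPM scale the 7 reads of cKO replicate 2 were given 25.8 TPM and the 12 reads of cKO replicate 1 only 2.92 TPM, so the level of this gene per length is uncertain in cKO.

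Bnip3l (chromosome 14, 66985239 to 67008877, minus strand) had 45.2 and 8.20 CPM in cKO. In WT it had 26.4 CPM in replicate 1, 53.3 CPM in replicate 2 and 105.3, 176.0, 119.8 and 106.7 CPM in the other 4. The cKO libraries were below all WT libraries except replicate 1, which lay between them. The log2 fold change was -1.81 ± 0.74 (SE, edgeR adjusted p = 0.378). Leaving out cKO replicate 1, with 6 reads left in cKO, gave -3.64. It was -1.20 without cKO replicate 2 and -0.47 in the libraries numbered 1 and 2 alone. On the TPM scale cKO had 27.6 and 5.12 TPM, below the 42.0 TPM that was the lowest in WT. The log2 ratio of Bnip3l to Bnip3 was 2.70 and -0.20 in cKO and 1.37 ± 1.49 in WT (SD, n = 6), a difference of -0.12 (exact two-sided permutation test, p = 0.929). This difference had no stable direction: it was 1.33 without cKO replicate 2, 0.43 without WT replicate 1, -1.57 without cKO replicate 1, -1.40 on log2(TPM + 1) and -1.79 in the libraries numbered 1 and 2 alone.

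Other genes of mitophagy and the autophagosome had mostly lower values in cKO too. Of 13 tested, 12 were lower and 1 higher in cKO, with a median of -1.26, beside 52.7% of all tested genes below 0. In edgeR 6 had an unadjusted p under 0.05, all lower, beside 8.89% of all tested genes, and none passed the adjusted threshold. Gabarapl2, a gene of the autophagosome membrane, had 20.8 and 15 CPM in cKO and at least 31.9 CPM in WT (log2 fold change -2.07 ± 0.67, SE, edgeR adjusted p = 0.369). Sqstm1, which encodes the cargo receptor p62, had 90.3 and 51.9 CPM in cKO and from 82.4 to 408.3 CPM in WT (-1.87 ± 0.63, SE). Its adjusted p was 0.369 in edgeR and 0.0417 in DESeq2, the 1 call of DESeq2 among the 10 of this list with an adjusted p, beside 3.53% of all such genes lower. In the libraries numbered 1 and 2 alone the median of the list was -0.52. The granulosa marker sum, of which Inha is the largest part, was low in cKO and in WT replicates 1 and 2. So were Bnip3, Bnip3l, Gabarapl2 and Sqstm1. The granulosa markers Foxl2, Amh, Amhr2 and Kitl did not split the WT libraries in that way. Not every gene of the mitophagy and autophagosome list had that order either. The part of the granulosa marker sum in the values of these genes was not tested.

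Ddit4 (chromosome 10, 59949669 to 59951834, minus strand) encodes an inhibitor of mTORC1 that acts through the TSC complex. It had 8.12 and 2.73 CPM in cKO. In WT it had 2.20 CPM in replicate 1, 4.10 CPM in replicate 2 and 30.8, 40.9, 22.9 and 9.17 CPM in the other 4. The cKO values overlapped those of WT replicates 1 and 2 and were below the other 4, a split like that of Bnip3 and of the granulosa marker sum. The log2 fold change was -1.67 ± 1.08 (SE, edgeR adjusted p = 0.531), or -2.80 without cKO replicate 1. Only 2 reads stood behind the value of cKO replicate 2, under its limit of 3. With the replicate number as a block the sign turned to 0.75. Of the 12 other genes of mTORC1 and its inhibitors, 7 were lower and 5 higher, with a median of -0.14. In edgeR 2 of them had an unadjusted p under 0.05, both lower, beside 8.89% of all tested genes lower at that threshold. DESeq2 called 0 of the 10 with an adjusted p there. Ddit4l, the paralogue of Ddit4, had 23.9 and 8.20 CPM in cKO and at least 31.9 CPM in WT (log2 fold change -1.91 ± 0.70, SE, edgeR adjusted p = 0.369). Rheb, the activator of mTORC1, was at -1.75 ± 0.79 (SE, edgeR adjusted p = 0.396) with 17.0 CPM in WT replicate 1, below both cKO libraries.

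Ndrg1 (chromosome 15, 66929318 to 66969640, minus strand) encodes a cytoplasmic protein induced by several stresses. It had 25.4 and 5.46 CPM in cKO, and its lowest, median and highest WT values were 0.226, 2.33 and 10.9 CPM. Replicate 1 of cKO was above all WT libraries, and replicate 2 of cKO was above all except WT replicate 3. The log2 fold change was 2.15 ± 1.13 (SE, edgeR adjusted p = 0.449), and it was 0.57 without cKO replicate 1, where 4 reads remained in cKO. On the TPM scale both cKO libraries, at 6.99 and 12.2 TPM, lay above the highest WT library at 4.26 TPM. The log2 fold change from counts was 2.77 in the libraries numbered 1 and 2 alone and -0.95 once detected genes were a covariate. In cKO replicate 1 the summed stroma markers were also at their highest, 1801.5 CPM, and their part in the Ndrg1 value was not tested. Exons of Ndrg1 share 419 and 137 of 6596 bases with the antisense genes Gm17035 and Gm2895. The NDRG relatives and Sgk1, the kinase gene for NDRG1, were 2 lower and 2 higher (median -0.39, 0 at an unadjusted p under 0.05 in edgeR, 0 called by DESeq2 among the 2 with an adjusted p there). Ndrg3 had 14.0 ± 2.43 CPM in cKO against 35.9 ± 24.0 CPM in WT (SD; log2 fold change -1.34 ± 0.71, SE, edgeR adjusted p = 0.449), and Ndrg2 was at -0.83 ± 0.57 (edgeR adjusted p = 0.554).

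**Figure D3:**
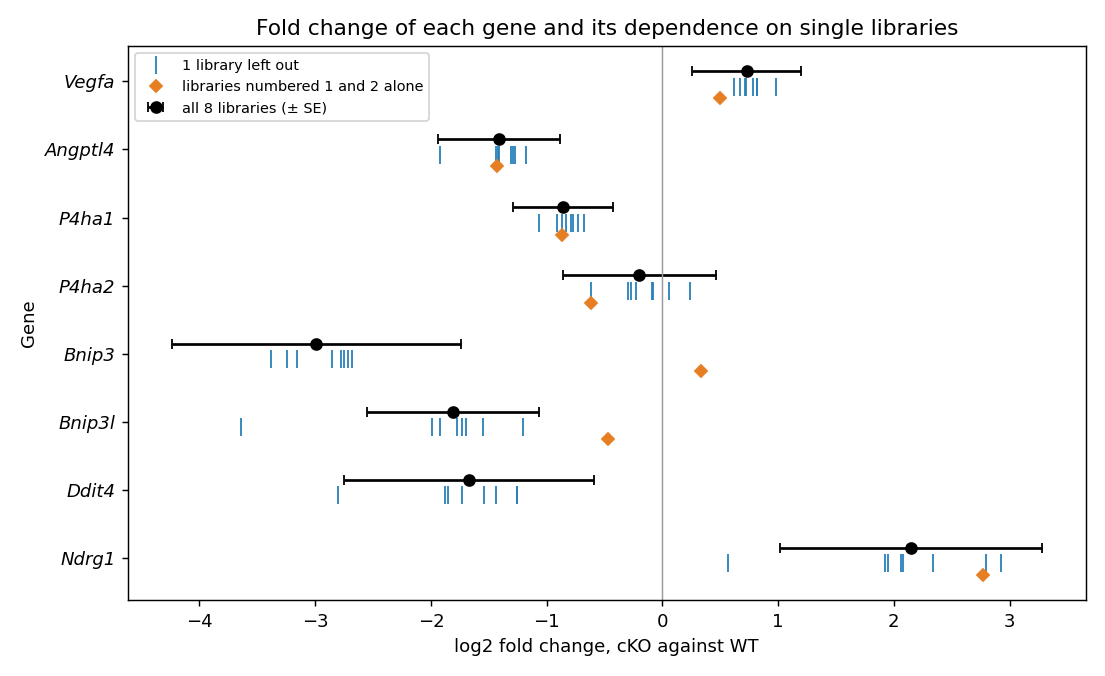
Log2 fold change of cKO against WT for the 8 tested genes with reads in cKO, with all 8 libraries (black, ± SE), with each library left out (blue ticks) and in the libraries numbered 1 and 2 alone (orange, not available for Ddit4). Angptl4 and P4ha1 stay between -1.92 and -0.68 in these, while Bnip3 lies at -2.99 with all libraries and at 0.33 in the numbered subset.

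Levels per transcript length, in the deposited TPM, placed the genes in a different order in the 2 groups. In cKO the highest means were 26.0 TPM for Vegfa, 16.4 TPM for Bnip3l, 14.4 TPM for Bnip3, 12.2 TPM for P4ha1, 11.8 TPM for Angptl4 and 11.1 TPM for P4ha2, followed by 9.62 TPM for Ndrg1, 2.84 TPM for Ddit4, 0.448 TPM for Adm and 0 for Car9. With SDs from 14.7 to 16.2 TPM for the leading 3, the order among the leading 6 was within the spread between libraries. In WT the means were 85.3 ± 40.8 TPM for Bnip3l, 35.6 ± 26.1 TPM for Bnip3, 26.6 ± 8.91 TPM for P4ha1, 19.5 ± 3.50 TPM for Angptl4, 17.3 ± 9.83 TPM for Vegfa, 14.0 ± 11.8 TPM for P4ha2, 10.5 ± 8.99 TPM for Ddit4, 3.47 ± 2.71 TPM for Car9, 1.31 ± 1.6 TPM for Ndrg1 and 0.861 ± 1.37 TPM for Adm (SD, n = 6 each). Each pair of neighbours in the WT order differed by less than the larger of their SDs, except Bnip3l and Bnip3.

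The genes were not all alike in their pattern over the 8 libraries, which share the laser capture and amplification. Likeness was measured as the mean absolute difference of log2(CPM + 1) after centring each gene on its own mean, among 13945 tested genes whose name is no Gm or Rik number. The most like genes were Golgb1 for Vegfa (0.09), Psmb10 for Angptl4 (0.15), Klhdc4 for P4ha1 (0.17), Glo1 for Bnip3l (0.18), Srbd1 for Ddit4 (0.22), Zfp738 for P4ha2 (0.23), Cptp for Car9 (0.29), Cfp for Ndrg1 (0.50) and Tmem123 for Bnip3 (0.51). The nearest other HIF1 target ranked from 145 (for Bnip3) to 4465 (for P4ha1) among 15101 tested genes. For Bnip3 it was Ddit4 (0.91, rank 145), for Ddit4 it was Bnip3l (0.63, rank 202) and for Ndrg1 it was Vegfa (0.87, rank 271). For P4ha1 it was P4ha2 (0.61, rank 4465). With 8 libraries and 15101 genes, close matches are easily found, so these are descriptions only.

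A wider list held 39 other HIF1 targets outside glycolysis. Of 34 tested, 24 were lower and 10 higher, beside 52.7% of all tested genes below 0. The median was -0.30, beside -0.08 over all genes. In edgeR 2 of the 34 had an unadjusted p under 0.05, Plin2 and Mxi1, both lower, beside 8.89% of all tested genes lower at that threshold. DESeq2 called 0 of the 14 that received an adjusted p there. Plin2, a lipid droplet coat gene, had 12.2 and 1.37 CPM in cKO and at least 13.2 CPM in WT (log2 fold change -2.15 ± 0.79, SE, edgeR adjusted p = 0.369). Mxi1, a repressor related to the MYC network, had 8.12 and 5.46 CPM in cKO, 7.14 CPM in WT replicate 1 and at least 13.9 CPM in the other WT libraries (-1.92 ± 0.80, SE, edgeR adjusted p = 0.380). In the numbered subset this list had a median of 0.27. Of 14 tested HIF pathway components 11 were lower and 3 higher, with a median of -0.52. In edgeR 3 of these had an unadjusted p under 0.05 (Hif1a, Vhl and Hif1an, all lower), beside the same 8.89% of all tested genes. Vhl rested on few reads, at 2.03 and 0 CPM in cKO and from 2.20 to 43.7 CPM in WT.

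**Figure D4:**
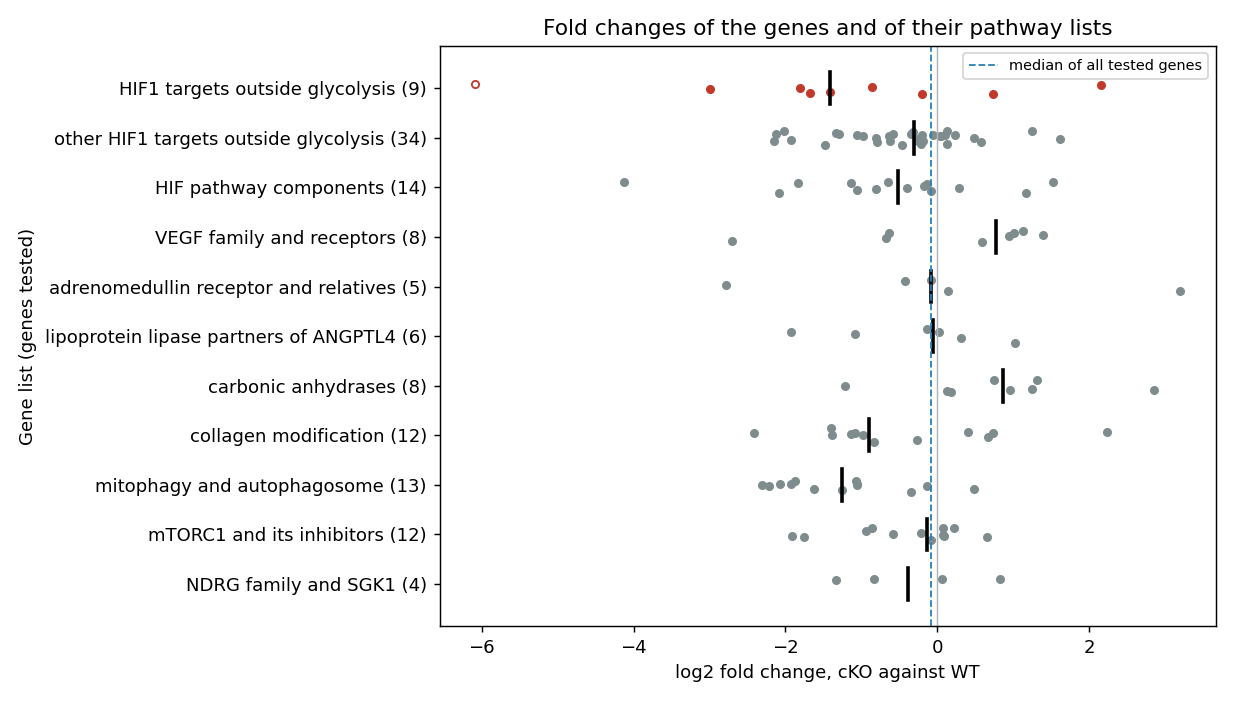
Log2 fold change of cKO against WT for every tested gene of the HIF1 targets outside glycolysis (red) and of 10 related lists (grey), with each list's median as a black bar and the median of all tested genes, -0.08, as a dashed line. The open symbol is Car9, which has no read in cKO and without which the median of the HIF1 targets is -1.13 in place of -1.41, while the mitophagy list has -1.26 and the carbonic anhydrases 0.86.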

How the data were processed

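RNA of laser-captured granulosa cells was amplified with a Smart-seq2 method and made into Tn5 libraries, per the labels' protocols. The authors deposited 1 table per library with estimated counts and TPM for 36635 rows. Per the submitters' processing notes the tools were HISAT2 and Salmon and the build mm10, with no versions, and no source used here names the annotation. The 1548 rows with a transcript identifier only (0.435% to 0.739% of reads) were left out. Deposited estimated counts were rounded, filtered with filterByExpr (minimum count 10, total 15), scaled by TMM and tested with edgeR 4.0.16 (glmQLFit, glmQLFTest, with a term for group) under R 4.3.3. Adjustment was by Benjamini-Hochberg over all 15102 genes, with a threshold of 0.05. CPM are on TMM-scaled library sizes, except the limits of 3 reads, which use unscaled sizes. SEs derive from the F statistic, and log values use a pseudocount of 1 CPM. Alternatives were DESeq2 1.42.0, limma 3.58.1 (voom, and log2 TPM), other scalings and filters, a replicate block, detected genes as a covariate, removal of mitochondrial genes, the libraries numbered 1 and 2 alone, and each library left out. Coordinates are from GENCODE M21 on GRCm38, the assembly mm10 denotes.

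The genes and lists were chosen with earlier results of these data known. Named genes were the 10 targets, Hif1a, in each list the 2 tested genes of smallest p, and the gene most like each target. Marker lists are given as sums, and granulosa markers are also named to show which follow their sum. The lowest chi-square per degree of freedom between any 2 libraries was 13, so none agreed within sampling noise. On simulated counts for cKO against WT over 15102 genes, the test called 22% of 4-fold and 80% of 16-fold changes and made 0 false calls.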

Additional observations from a re-analysis of the deposited data

Results flagged for a closer look

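P4ha2 in WT replicate 1 stood apart from the other WT libraries, at 57.7 CPM with the nearest at 28.5 CPM. The gap took 0.646 of the range of the 6 WT values, above the critical share of 0.625 in Dixon's test. This test flags about 1 in 20 groups by chance, and 12 sets of WT values were examined (the 10 genes and 2 ratios). In the same library Bnip3 was at its lowest WT level, 0.549 CPM.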

How the results depend on the processing

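Angptl4, P4ha1 and Bnip3l were lower in cKO in all 20 alternative settings, Bnip3l with values from -3.64 to -0.28. For Angptl4 and P4ha1 every cKO value in CPM lay below every WT value. Settings that leave out libraries therefore had little room to turn their sign. The sign of Car9 is fixed by its 0 reads in cKO, so its alternative settings were not counted here. Without a filter 478 genes were called, 2 of them members: Bnip3 (-3.05, adjusted p = 0.00201, with a range of 0.00201 to 1 over its settings) and Bnip3l (-1.91, adjusted p = 0.0459, range 0.0459 to 1). DESeq2 called 274 genes, limma on log2(TPM + 1) called 5 with a members' median of -1, and leaving out 1 library gave from 0 to 1 (1 without either cKO library). Leaving out 1 library, the members called stayed at 0, those at an unadjusted p under 0.05 ranged from 0 (without cKO replicate 2) to 4 (without WT replicate 3), with 1 without WT replicate 4, and their median from -1.92 to -1.05. Under alternatives chosen after seeing the data, the members without overlap ranged, with 1 library left out, from 3 to 5 lower and from 1 to 2 higher. On the deposited TPM scale the members without overlap were Car9, P4ha1 and Bnip3l lower and Ndrg1 higher, while Angptl4 and Vegfa overlapped. In CPM those higher were 0 without a TMM factor and 2 (Vegfa and Ndrg1) in the libraries numbered 1 and 2. In those libraries 0 members had an unadjusted p under 0.05, the median was -0.47 (without Car9 and Ddit4, which failed the filter there) and Bnip3 turned to 0.33. With detected genes as a covariate the count was 0, the median -0.79, and Vegfa (-0.51) and Ndrg1 (-0.95) turned. P4ha2 turned with limma-voom (0.06) and without cKO replicate 1 (0.06) or WT replicate 1 (0.24), and its range over single omissions was -0.62 to 0.24. With 1 library left out the Bnip3l to Bnip3 ratio difference ranged from -1.57 to 1.33, turning without cKO replicate 2 (1.33) or WT replicate 1 (0.43), and the P4ha1 to P4ha2 ratio difference from -1.27 to -0.36. An alternative chosen after seeing the data, without WT replicates 2 and 6 (the largest oocyte-marker sums), gave a median of -1.08 over 8 members, since Car9 then failed the filter. Car9 also failed it without WT replicate 2, 4, 5 or 6, so the medians there (-1.08, -1.09, -1.07 and -1.05) are over 8 members. With all libraries the median of the same 8 members was -1.13. The cause of the other changes was not tested.

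The groups share only the replicate numbers 1 and 2. The deviations of same-numbered libraries had correlations over genes of -0.30 and -0.17. With 2 cKO libraries the deviations of replicate 2 mirror those of replicate 1. These values therefore cannot decide whether the numbers pair libraries. With the replicate number as a block 1 gene was called, 0 members had an unadjusted p under 0.05, the median was -0.36, and Bnip3 (0.91) and Ddit4 (0.75) turned. Depth limits the low genes: in cKO replicate 2, with 651426 reads, Ddit4 rested on 2 reads, Ndrg1 on 4, Bnip3l on 6, Bnip3 on 7 and Angptl4 on 8.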
